A study of Mus musculus with 6 samples.

Results

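These regions are the whole lamina-associated domains (LADs) of chromosomes 1 to 19 that appear in the LAD list of mouse embryonic fibroblasts under LmnA RNAi and in neither of the lists made under LmnC RNAi or LmnB1 RNAi. The regions were chosen by the LAD calls: a LAD of the LmnA RNAi list was taken when it shared 0 bp with every LAD of both other lists. This held for 216 of the 1680 autosomal LADs of that list (12.9%). Because those calls belong to the same maps as the signal described below, the signal in these regions is a description and was not tested.

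The fibroblasts were wild-type C57BL/6 cells, and 3 populations were mapped by DamID. The first received lentiviral shRNA against LmnA and was mapped with Dam-LmnB1, the second received shRNA against LmnC and was mapped with Dam-LmnB1, and the third, labelled LmnB1 RNAi, was mapped with Dam-LmnA. The treatment protocol names the shRNAs against LmnA and LmnC only, and the LmnB1 target comes from the sample labels. By that protocol cells went through puromycin selection and a second lentiviral transduction, with Dam alone or with the fusion. Each map joins 1 fusion library and 1 Dam-only library, so there were 6 libraries and no replicates. The LmnA RNAi map is therefore set beside the LmnC RNAi map with the fusion held constant. Beside the LmnB1 RNAi map it differs in both target and fusion, and these cannot be told apart. RNA and protein were not measured, so depletion of each lamin was not checked here, and cells without shRNA were not analysed here. All coordinates are in mm9, and genes and sequence of these regions are not given.

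LADs are long stretches of mostly silent, late-replicating chromatin that touch the nuclear lamina, the filament mesh under the inner nuclear membrane. The Lmna gene gives lamins A and C by alternative splicing, and both lie at the lamina and in the nuclear interior, whereas lamin B1, from Lmnb1, is held at the membrane by its farnesyl anchor. In fibroblasts LADs alternate along each chromosome with inter-LAD stretches that hold most active genes, and some domains contact the lamina in only a part of the cells. DamID averages over cells, so fewer cells with a contact and weaker contact per cell cannot be told apart.

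The deposited signal is log2 of fusion over Dam-only reads for each GATC fragment, the piece of DNA between neighbouring sites of the Dam methyltransferase. A fragment read in only 1 library of a map has a value beyond 12 in either direction, because 1e-05 stands in for its missing reads, as the steps between the values show, and such single-library fragments weigh heavily in a mean. Many other fragments share 1 constant value per map (-0.34, 0.21 and -0.15 for LmnA, LmnC and LmnB1 RNAi), which held for 31.9%, 30.7% and 32.2% of the fragments in these regions. Equal reads in both libraries, 0 included, could give such a value, and how many of these fragments had 0 reads is not given here. They enter the means at the constant unless left out, so a signal of 0 is not the same point in each map. The maps also differed over the whole genome. The median 100 kb bin of chromosomes 1 to 19 stood at 1.21 under LmnA RNAi, 0.06 under LmnC RNAi and 0.53 under LmnB1 RNAi, so the LmnA RNAi map lay higher by 1.15 and 0.68 before any region was singled out. Total reads per library are unknown.

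The 216 LADs were short. They added up to 57.1 Mb, which was 3.52% of the autosomal LAD sequence under LmnA RNAi, and 33.5% of the 170.2 Mb of it that lay outside the LADs of both other maps. Their median length was 193 kb, from 100.3 to 1906 kb with quartiles of 141 and 310 kb, against a median of 608 kb for the other 1464 autosomal LADs of the list (quartiles 295 and 1276 kb). The share found only after LmnA RNAi fell with length. It was 41.1% of the LADs of 100 to 150 kb (65 of 158), 32.9% of those of 150 to 200 kb (48 of 146) and 18.2% of those of 200 to 300 kb (41 of 225). It was 14.4% from 300 to 500 kb (42 of 292), 4.61% from 500 kb to 1 Mb (17 of 369) and 0.612% from 1 Mb (3 of 490). A short LAD has less sequence in which to share a base with another list, and the part of this in the decline was not tested.

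**Figure D1:**
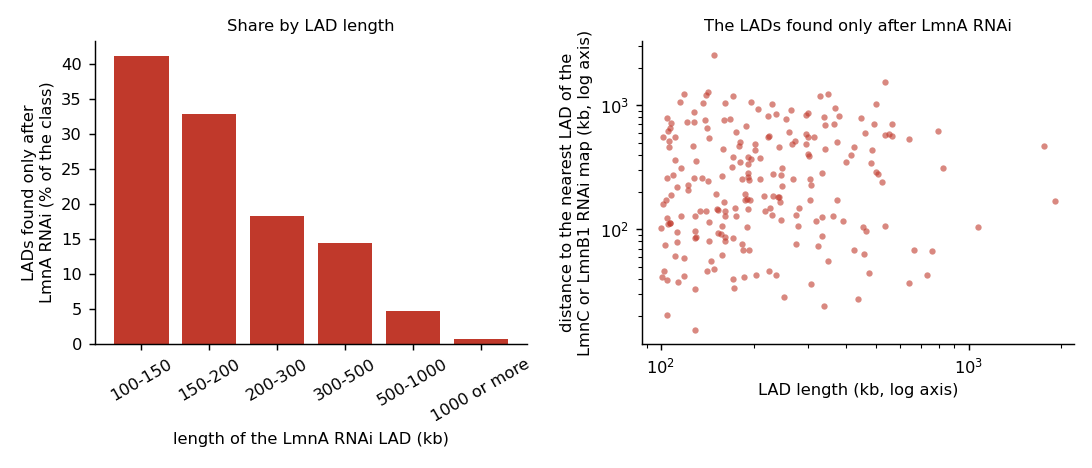
Left, share of the LmnA RNAi LADs in each length class (kb) that was found only after LmnA RNAi, in percent. Right, each of the 216 such LADs by its length and its distance to the nearest LAD of the LmnC or LmnB1 RNAi map, both in kb on log axes. The share falls from 41.1% in the shortest class to 0.612% in the longest, and the distances run from 15.4 to 2532 kb.

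Every autosome held some of them. Chromosome 2 had 21, chromosome 8 had 17 and chromosome 13 had 16, whereas chromosome 19 had 4. As a share of the LADs of the chromosome they ranged from 7 of 100 on chromosome 10 to 17 of 86 (19.8%) on chromosome 8. Chromosome 13 carried the most sequence, 6.00 Mb or 7.45% of its LmnA RNAi LAD length, and gene-dense chromosome 11 carried 2.32 Mb in 8 LADs. Chromosome 18 had the lowest share of LAD length, at 1.79% in 7 LADs. Of the 216, 18 lay within 10 Mb of the first fragment of their chromosome, where 153 LADs of the list lie, and 17 within 10 Mb of the last, where 155 lie.

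The LADs stood as islands inside stretches with no LAD in either of the other maps. There were 1182 such inter-LAD stretches of at least 100 kb, and 181 of them (15.3%) held the 216 LADs. Most stretches with an island held a single one (149), another 30 held 2, and a median of 20.9% of the stretch was taken up (1.85 to 82.3%). The stretches with islands were long, with a median of 1.32 Mb against 0.335 Mb for those without. Islands lay in 43.3% of the stretches of at least 1 Mb (109 of 252) and in 7.74% of those of 0.1 to 1 Mb (72 of 930). Longer stretches offer more room, and as a share of sequence the islands took 7.77% of the longer and 4.26% of the shorter stretches.

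The stretch with the most islands was chr17:62466428-65202658 (2.74 Mb), with 4 islands of 255, 115, 171 and 136 kb that made up 24.7% of it. Under LmnA RNAi their mean signals were 0.01, -0.01, 0.06 and 0.50, under LmnC RNAi -1.76, -1.72, -1.48 and -0.69, and under LmnB1 RNAi -0.49, -0.64, -0.63 and 0.24. The order of the maps was thus the same in each of the 4, and the median autosomal bins of the maps stand in that order too. A stretch of chromosome 13, chr13:97897316-100320140 (2.42 Mb), held 3 islands over 30.2% of its length. Their signals were 0.01, 0.01 and -0.46 under LmnA RNAi, -1.62, -1.41 and -2.21 under LmnC RNAi, and -1.08, -0.58 and -1.26 under LmnB1 RNAi.

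The nearest LAD of another map was a median of 247 kb away, with quartiles of 105 and 551 kb. It lay within 50 kb for 23 islands, within 100 kb for 51 and within 1 Mb for 202. The nearest LAD of the LmnA RNAi list itself was closer, at a median of 148 kb, and was another island in 38 cases. No autosomal LmnA RNAi LAD had up to 10% of its length in LADs of the other maps without being at 0, so the rule with that allowance picked the same number, 216.

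Signals just inside and just outside the rule overlapped. Just inside, the island nearest to another map's LAD was chr4:141664080-141793375, 15.4 kb from a LmnC RNAi LAD and 16.0 kb from a LmnB1 RNAi LAD, with -0.07 ± 0.22 under LmnA RNAi, -1.67 ± 0.29 under LmnC RNAi and -1.48 ± 0.31 under LmnB1 RNAi (mean ± SE over fragments of the 1 map). The next were chr7:144514901-144619885 (20.5 kb away), chr8:24007684-24347172 (23.9 kb), chr13:112603397-113039104 (27.6 kb) and chr2:93321192-93572331 (28.3 kb). Just outside, chr17:75755163-75931110 shared the fewest bases, 54.6 kb or 31.1% of its length, with 0.18 ± 0.24 under LmnA RNAi, -1.61 ± 0.23 under LmnC RNAi and -1.35 ± 0.24 under LmnB1 RNAi. The following 4 shared 57.9 to 81.0 kb. One of them, chr12:31599499-31736980, had 1.17 ± 0.27, 0.69 ± 0.28 and 1.47 ± 0.31 in the same order of maps, well above the islands' medians. The most isolated island was chr9:61557206-61705735, 2532 kb from a LmnC RNAi LAD and 5674 kb from a LmnB1 RNAi LAD, with -0.05 ± 0.22, -1.57 ± 0.31 and -0.48 ± 0.31.

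In the LmnA RNAi map the islands were among the weakest LADs, with signal around 0. Their median was 0.18 under LmnA RNAi (-0.62 to 2.68, quartiles -0.07 and 0.60), -1.52 under LmnC RNAi (-2.99 to 2.17) and -0.74 under LmnB1 RNAi (-2.29 to 1.58). The other autosomal LADs of the list had medians of 1.87, 0.80 and 1.08, and those under 300 kb, which are closer in length, 1.35, 0.28 and 0.62. The mean was above 0 in 147 islands under LmnA RNAi, in 10 under LmnC RNAi and in 18 under LmnB1 RNAi, against 94.9%, 65% and 76.6% of all autosomal LmnA RNAi LADs and 65.1%, 50.7% and 56.6% of autosomal 100 kb bins. Among all autosomal LADs of the LmnA RNAi list the median island stood at percentile 8.72 of signal. In the other maps, 201 islands lay below the 5th percentile of LmnC RNAi LADs (-0.53) and 199 below that of LmnB1 RNAi LADs (0.02). The rule took only sequence without a LAD call in those maps, which favours such low values. The same counts over bins are not given here, so nothing is read from them.

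**Figure D2:**
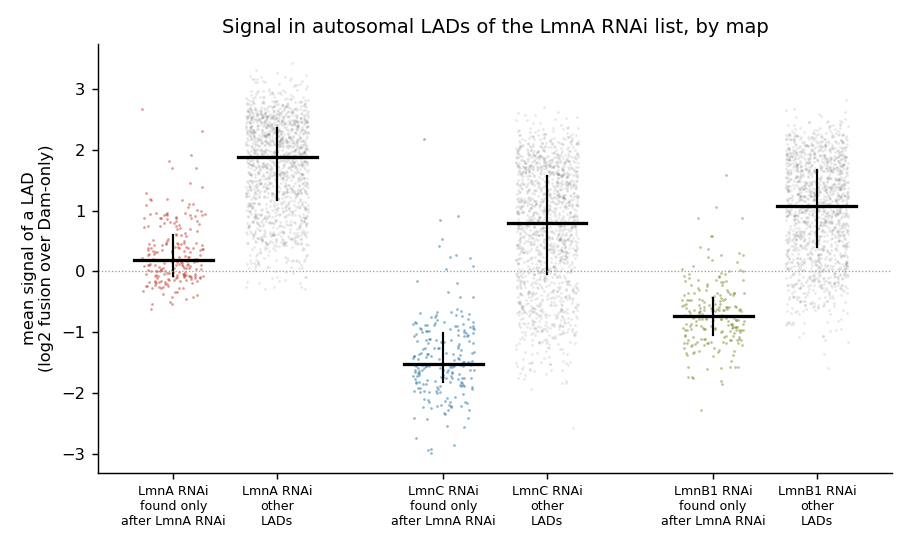
Mean log2 signal of each autosomal LAD of the LmnA RNAi list in the LmnA, LmnC and LmnB1 RNAi maps, for the 216 found only after LmnA RNAi (coloured) and the other 1464 (grey). Thick lines are medians and thin lines run between the quartiles. The coloured medians are 0.18, -1.52 and -0.74, each below the grey median of the same map.

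The LmnA RNAi signal was the highest of the 3 maps in 210 islands, as in 97.3% of all autosomal LmnA RNAi LADs and 73.7% of autosomal 100 kb bins. LmnB1 RNAi lay above LmnC RNAi in 202 islands, and in 79.6% of the LADs and 78.9% of the bins. The median bins of the maps stand in the same order. The LmnA RNAi minus LmnC RNAi difference had a median of 1.68 and exceeded 0.5 in 212 islands (98.1%), where it exceeded 0.5 in 91.4% of all autosomal LmnA RNAi LADs and in 75.8% of autosomal 100 kb bins. The LmnA RNAi minus LmnB1 RNAi difference had a median of 1.04 and exceeded 0.5 in 191 (88.4%), against 76.4% of the LADs and 48.7% of the bins. The lists that chose the islands belong to these same maps, so nothing is read from these shares. With 1 map per RNAi, no test across replicates was possible. Sampling of fragments alone gave an SD of 0.33 for the first difference and 0.29 for the second, from odd-numbered against even-numbered fragments, which covers variation within the library pairs only.

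Part of these differences matched the shift between the median autosomal bins of the maps. That shift was not uniform along the genome. In bins outside the LADs of both other maps, given below, the LmnA and LmnB1 RNAi medians lay closer together than at the median autosomal bin. Centring can thus take more than the local shift off the difference to LmnB1 RNAi. With each map centred on its median autosomal bin, the islands' median was -1.03 under LmnA RNAi, -1.58 under LmnC RNAi and -1.27 under LmnB1 RNAi. The difference to LmnC RNAi shrank to a median of 0.53, with 115 islands over 0.5 (53.2%, against 16.1% of the LADs and 15.6% of the bins). The difference to LmnB1 RNAi shrank to 0.36, with 76 over 0.5 (35.2%, against 14.6% and 13.7%). The centred difference was above 0 in 183 islands against LmnC RNAi and in 167 against LmnB1 RNAi, where it was above 0 in 43.6% and 58.7% of all autosomal LmnA RNAi LADs and in 37.2% and 37.9% of the bins. The other LADs had medians of -0.18 and 0.05, and the choice of the islands by these maps bears on all of these counts.

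Without single-library fragments the islands had medians of -0.26 under LmnA RNAi, -0.81 under LmnC RNAi and -0.50 under LmnB1 RNAi. The sign under LmnA RNAi thus turned, though the median stayed above the constant value of that map. The difference to LmnC RNAi then exceeded 0.5 in 115 islands (28.5% of the LADs and 22.4% of the bins did). The difference to LmnB1 RNAi exceeded 0.5 in 27 islands, 12.5%, which is below the 16.2% of the LADs and 16.6% of the bins. Its median was 0.24, while the cut stayed at 0.5. Fragments were left out map by map, so the compared means rest on different fragments. In the islands, the fragments left out were mostly fusion-only in the LmnA RNAi map and mostly Dam-only in the other maps, as given below.

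A rank within each map is free of any offset between maps. Among the 23934 autosomal bins of the same map, the median island stood at percentile 37.0 under LmnA RNAi, 33.2 under LmnC RNAi and 34.3 under LmnB1 RNAi. The LmnA RNAi rank exceeded the LmnC RNAi rank in 165 islands, by a median of 3.51 percentile points over all 216. It exceeded 10 points in 39 islands, and in 4 the LmnC RNAi rank was higher by over 10 points. Against LmnB1 RNAi the rank was higher in 164, by a median of 4.07 points, with 31 islands over 10 points and 5 the other way. The other autosomal LADs had median rank differences of 1.58 and 2.32 points. Without single-library fragments the rank was higher in the LmnA RNAi map in 139 islands against LmnC RNAi and in 128 against LmnB1 RNAi, with medians of 2.37 and 1.41 points. The same rank counts over the other LADs and over bins are not given here. The LAD calls that chose the islands favour a higher rank in the LmnA RNAi map, so nothing is read from the counts.

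The longest island was chr14:99544129-101450517 (1.91 Mb, 4556 fragments), which took most of a 2.98 Mb inter-LAD stretch together with a second island of 196 kb. Its mean signal was 0.33 ± 0.07 under LmnA RNAi, -1.56 ± 0.07 under LmnC RNAi and -0.35 ± 0.06 under LmnB1 RNAi. It stood at percentiles 38.6, 32.8 and 39.0 of its maps, so its rank was slightly higher in the LmnB1 RNAi map, whose list has no LAD there, than in the LmnA RNAi map.

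Next in length, chr3:146530492-148282824 (1.75 Mb), had 0.97 ± 0.07, -1.57 ± 0.07 and -0.27 ± 0.07, at percentiles 46.7, 32.7 and 39.96 in the same order. After it, chr3:84765765-85840772 (1.08 Mb), had 0.51 ± 0.09, -1.63 ± 0.09 and -0.95 ± 0.09. These 3 were the only islands of at least 1 Mb.

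The other five of the 8 longest measured 662 to 825 kb. On chr13:16952137-17776860 the signal was 0.15 ± 0.12 under LmnA RNAi, -1.98 ± 0.11 under LmnC RNAi and -1.06 ± 0.11 under LmnB1 RNAi. On chr11:85216445-86014191, whose nearest LAD of another map lay 615 kb away, it was 0.19 ± 0.10, -1.83 ± 0.11 and -1.18 ± 0.10. Both had about the same signal as the median island under LmnA RNAi and lower signal in the other maps. The others, chr13:31914386-32673430, chr8:32342815-33077194 and chr2:6308719-6971145, had 0.38, 0.34 and 0.93 under LmnA RNAi, -1.92, -1.79 and -1.34 under LmnC RNAi, and -0.79, -1.12 and -0.92 under LmnB1 RNAi. With each map centred on its median autosomal bin, the LmnA RNAi minus LmnC RNAi difference of these 8 was 0.74 to 1.38. The centred LmnA RNAi minus LmnB1 RNAi difference was 0.0036 on the longest island and 0.50 to 1.17 on the other 7. On the longest island the difference before centring was thus about the shift between the median autosomal bins of these maps.

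**Figure D3:**
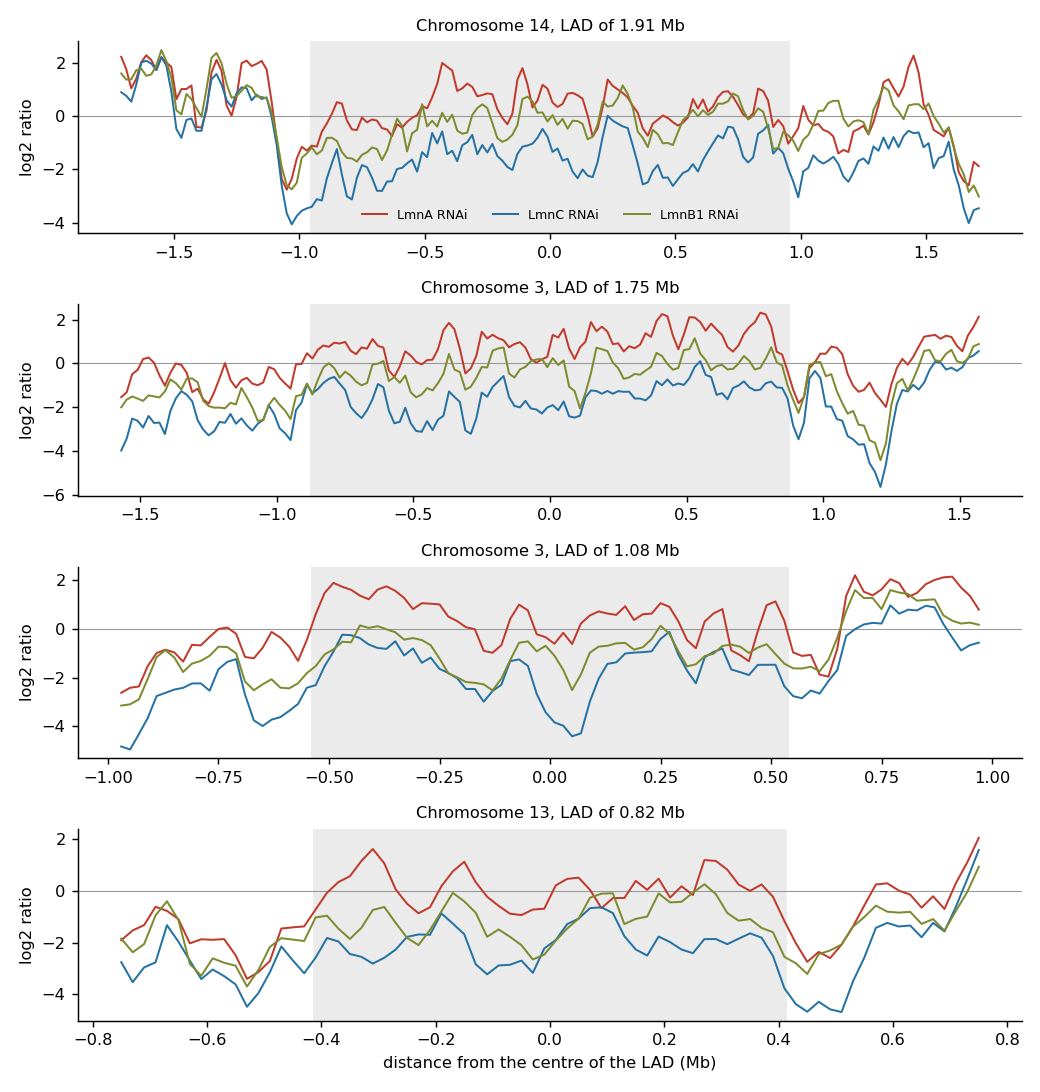
Signal (log2 ratio, 20 kb bins, running mean over 3 bins) against distance from the centre of the 4 longest LADs found only after LmnA RNAi (grey band) and their surroundings, in the LmnA (red), LmnC (blue) and LmnB1 RNAi (olive) maps. The red line runs highest over most of each band, and the 3 lines rise and fall at many of the same places. The mean over the band is 0.33, 0.97, 0.51 and 0.15 under LmnA RNAi in the 4 LADs.

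Longer islands tended to have lower signal in the other maps, while length had almost no rank correlation with the LmnA RNAi signal. Islands of at least 300 kb (62) had medians of 0.20 under LmnA RNAi, -1.76 under LmnC RNAi and -0.90 under LmnB1 RNAi. Those of 100 to 150 kb (65) had 0.11, -1.34 and -0.64. The median difference to LmnC RNAi was 1.95 in the longer and 1.59 in the shorter class, and the gap to LmnB1 RNAi was closer between the classes, at 1.13 in the longer one. Across the 216 islands, length had a Spearman rho of -0.0006 with the LmnA RNAi signal, -0.26 with the LmnC RNAi signal and -0.19 with the LmnB1 RNAi signal. Longer islands average over more fragments, so their means vary less. A longer LAD also meets the rule only where the other maps have no call over more sequence. The choice of the islands thus bears on the link of length with the signal of those maps, and its part was not tested.

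Most islands also stood above their surroundings in the maps that called no LAD there. Over the 100 kb on both sides of each island the median signal was -1.73 under LmnA RNAi, -3.02 under LmnC RNAi and -1.98 under LmnB1 RNAi. Signal inside minus these flanks had a median of 2.03, 1.52 and 1.23. It was above 0 in 216 islands under LmnA RNAi, in 212 under LmnC RNAi (98.1%) and in 213 under LmnB1 RNAi (98.6%). The same held for 99.9%, 99.5% and 99.4% of all autosomal LmnA RNAi LADs. For 100 kb bins outside the LADs of both other maps, the bin lay above its flanks in 44.2% under LmnA RNAi, 43.7% under LmnC RNAi and 44.3% under LmnB1 RNAi. The island also stood above each flank taken alone in 207, 195 and 192 cases, against 97.1%, 94.4% and 93.6% of all autosomal LmnA RNAi LADs. Without single-library fragments the island was above its flanks in 215, 213 and 214 cases, with medians of 0.89, 0.68 and 0.58. The borders were set on the LmnA RNAi map, so a step at them in that map is built in. The maps share their fragments and base composition, so the steps in the other maps are not independent of that choice. The 100 kb bins set beside the islands had no borders chosen by signal.

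The signal changed within 10 kb of the borders in all maps. The median over islands in the last 10 kb before the start was -2.59 under LmnA RNAi, -2.93 under LmnC RNAi and -2.20 under LmnB1 RNAi. Inside, over 10 parts of equal length, it stayed between 0.09 and 0.38 under LmnA RNAi, -1.59 and -1.25 under LmnC RNAi, and -0.995 and -0.65 under LmnB1 RNAi. In the first 10 kb after the end it was -2.38, -3.17 and -2.13. From 100 to 200 kb away it averaged -1.03, -2.38 and -1.47. In the LmnA RNAi map the 10 kb before the start was the lowest of all bins within 200 kb, while the lowest bins of the other maps (-3.41 under LmnC RNAi and -2.35 under LmnB1 RNAi) lay elsewhere in the flanks.

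**Figure D4:**
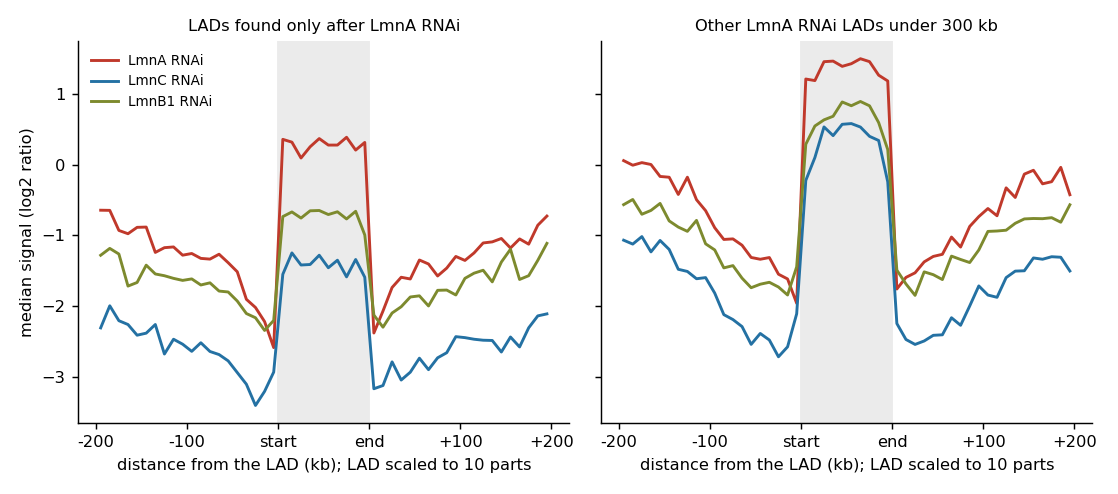
Median log2 signal over LADs in 10 kb bins up to 200 kb outside and in 10 equal parts inside (grey), in the LmnA, LmnC and LmnB1 RNAi maps, for the LADs found only after LmnA RNAi (left) and the other LmnA RNAi LADs under 300 kb (right). All 3 lines step up at the borders on the left, to inside averages of 0.28, -1.43 and -0.73, and to higher levels on the right.

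The step was smaller in the other maps. Inside minus flanks was larger in the LmnA RNAi map than in the LmnC RNAi map in 179 of 216 islands, with a median difference of 0.51, and larger than under LmnB1 RNAi in 195, with 0.71. For the other autosomal LADs the LmnA RNAi step exceeded the LmnC RNAi step in 708 of 1464 (median difference -0.01) and the LmnB1 RNAi step in 1192 (0.46). The islands were chosen for a LAD call in the LmnA RNAi map alone, which favours a larger step there. Across islands the step in one map followed that in another, with r = 0.74 between LmnA and LmnC RNAi, 0.66 between LmnA and LmnB1 RNAi and 0.75 between LmnC and LmnB1 RNAi (n = 216 islands, each with the same fragments, borders and base composition in all maps).

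**Figure D5:**
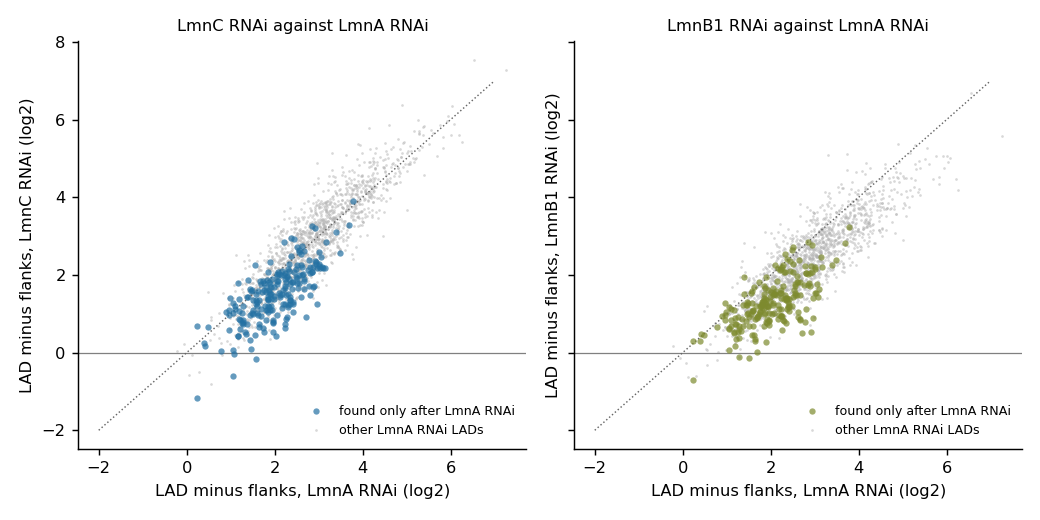
Signal of each autosomal LmnA RNAi LAD minus its 100 kb flanks (log2) in the LmnA RNAi map (x axis) against the LmnC RNAi map (left) and the LmnB1 RNAi map (right). The 216 LADs found only after LmnA RNAi are coloured, the other 1464 grey, and the dotted line marks equal steps. All but 4 coloured points on the left and all but 3 on the right lie above 0.

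The exceptions, picked out after their values were seen, were few. Under LmnC RNAi the islands chr14:23435324-23615771, chr17:42458697-42563283, chr2:18159802-18288545 and chr4:141664080-141793375 lay below their flanks, by -0.17, -0.04, -0.60 and -1.18. Under LmnB1 RNAi the islands chr2:37809943-37984798, chr3:27961667-28420040 and chr4:141664080-141793375 did, by -0.12, -0.15 and -0.70. The chromosome 4 island is the one within 16.0 kb of LADs of both other maps, and in the LmnA RNAi map too its step was the lowest of all, at 0.23. Without single-library fragments 3 of these steps turned positive, to 0.15 on chr17:42458697-42563283 under LmnC RNAi, and to 0.15 on chr2:37809943-37984798 and 0.12 on chr3:27961667-28420040 under LmnB1 RNAi. The chromosome 4 island then lay below its flanks under LmnA RNAi too, by -0.12.

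Even without a LAD call, the islands ranked high among sequence outside the LADs of the other maps. Among the 7710 autosomal 100 kb bins that lay wholly outside LmnC and LmnB1 RNAi LADs, the median island stood at percentile 91.2 under LmnA RNAi, 88.0 under LmnC RNAi and 89.2 under LmnB1 RNAi. It was above the median bin in 216, 215 and 215 islands, and above the upper quartile in 216, 188 and 193. Without single-library fragments the median percentiles were 89.7, 88.9 and 89.1. The bins' own medians were -1.82, -2.95 and -1.99. The list chose high LmnA RNAi sequence, and the maps share their fragments, so a high rank in the other maps is not independent of the rule.

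Signals of the islands also followed each other between maps, most closely in the pair without LAD calls there. Pearson's r was 0.77 between LmnC and LmnB1 RNAi, 0.57 between LmnA and LmnC RNAi and 0.62 between LmnA and LmnB1 RNAi (Spearman's rho 0.69, 0.48 and 0.53, n = 216). Between the odd-numbered and the even-numbered fragments of an island, r was 0.75 within the LmnA RNAi map, 0.82 within LmnC RNAi and 0.78 within LmnB1 RNAi. The points of each pair share fragments and base composition, and the LAD call limits the range of the LmnA RNAi signal.

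The single-library fragments show the balance of the libraries without the size of a ratio, though their shares also move with the unknown depth of both libraries. Of the 138762 fragments in islands, 14.4% were read in the fusion library alone under LmnA RNAi (95% Wilson interval 14.2 to 14.6), 7.47% under LmnC RNAi (7.34 to 7.61) and 9.11% under LmnB1 RNAi (8.96 to 9.26). The share seen in the Dam-only library and not in the fusion library was 7.27% (7.14 to 7.41), 15.1% (14.9 to 15.3) and 12.5% (12.3 to 12.7). The intervals cover counting error only, and reads without molecular identifiers are not independent molecules. Fusion-only fragments thus numbered 1.98 per Dam-only fragment under LmnA RNAi, 0.494 under LmnC RNAi and 0.728 under LmnB1 RNAi. In the 100 kb flanks the ratios were 0.479, 0.188 and 0.297, in the other autosomal LADs of the list 4.68, 2.49 and 2.99, and over all autosomal fragments 2.02, 1.06 and 1.36.

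The islands had about the fusion-only to Dam-only ratio of the autosomes as a whole under LmnA RNAi, and a lower ratio than the autosomes in both other maps. In all maps the ratio in islands lay between that of the flanks and that of the other LADs. Fusion-only outnumbered Dam-only fragments in 216 islands under LmnA RNAi, in 13 under LmnC RNAi and in 36 under LmnB1 RNAi. The same held for 100%, 73.1% and 83.6% of all autosomal LmnA RNAi LADs and for 71.7%, 54.6% and 60.2% of autosomal 100 kb bins. The LAD calls of these maps chose the islands, so nothing is read from the counts.

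The 5 islands with the widest gap to LmnC RNAi measured 129 to 325 kb. The largest LmnA RNAi minus LmnC RNAi difference, 3.26, was on chr4:83771327-84096405 (325 kb), with 0.32 ± 0.15 under LmnA RNAi, -2.94 ± 0.18 under LmnC RNAi and -1.75 ± 0.15 under LmnB1 RNAi. It stood at percentile 38.5 of the LmnA RNAi map, close to the median island, and at percentile 17.2 of the LmnC RNAi map, far below it. The island chr18:63406324-63540232 (134 kb) had the largest difference to LmnB1 RNAi, 2.35, and the next largest to LmnC RNAi, 3.19. Its signal was 1.70 ± 0.24 under LmnA RNAi, -1.49 ± 0.26 under LmnC RNAi and -0.65 ± 0.26 under LmnB1 RNAi, at percentiles 57.9, 33.5 and 35.3.

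The other three had a difference to LmnC RNAi of 2.996 to 3.12. On chr2:18159802-18288545 the values were 0.13 ± 0.26, -2.99 ± 0.42 and -1.81 ± 0.26 in the order LmnA, LmnC and LmnB1 RNAi. On chr4:95174892-95456038 they were 0.88 ± 0.16, -2.23 ± 0.23 and -0.64 ± 0.16. On chr1:43580930-43740440 they were 0.74 ± 0.24, -2.25 ± 0.25 and -1.35 ± 0.23, and this island was also among the 5 largest differences to LmnB1 RNAi (2.09). The others by that measure were chr3:27961667-28420040 (2.31), chr1:54904428-55022931 (2.10) and chr2:109841285-109987038 (2.08).

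At the other end, a few islands had about the same or lower signal under LmnA RNAi than in another map. On chr7:4485734-4590827 the signal was 0.09 ± 0.39 under LmnA RNAi, 0.27 ± 0.30 under LmnC RNAi and 0.05 ± 0.31 under LmnB1 RNAi. On chr5:143272294-143451469 it was 0.83 ± 0.38, 0.90 ± 0.48 and 0.88 ± 0.53, and only 43.3% of this island was covered by fragments, with an assembly gap in the rest. On chr8:106702364-106855868 it was 0.89 ± 0.22, 0.54 ± 0.23 and 0.88 ± 0.24. On chr15:53200277-53360869 it was higher under LmnB1 RNAi (-0.10 ± 0.25 under LmnA RNAi, -1.20 ± 0.24 under LmnC RNAi and 0.37 ± 0.20 under LmnB1 RNAi). The LmnB1 RNAi signal was also the higher on chr8:55207664-55487405 (LmnA minus LmnB1 RNAi -0.31), chr4:33121418-33332053 (-0.20) and chr15:63608058-63712850 (-0.14).

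One island had strong signal in all maps. On chr10:118309980-118422498 (113 kb, 306 fragments) the signal was 2.68 ± 0.30 under LmnA RNAi, 2.17 ± 0.44 under LmnC RNAi and 1.58 ± 0.38 under LmnB1 RNAi, at percentiles 83.2, 87.1 and 67.5, and this was the highest island signal of each map. It is listed as a LAD only after LmnA RNAi, although its rank was higher under LmnC RNAi. Next highest under LmnA RNAi, chr7:144514901-144619885 (105 kb), had 2.31 ± 0.32, 0.84 ± 0.39 and 1.06 ± 0.30. After it, chr7:77581563-77710993 (129 kb), had 1.92 ± 0.28, -0.81 ± 0.21 and 0.19 ± 0.25. These 3 islands are near the shortest length that the lists hold, which is 100.3 kb.

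The weakest islands under LmnA RNAi were chr5:5394228-5498916 (-0.62 ± 0.27), chr1:152027958-152237616 (-0.54 ± 0.26) and chr2:35794085-35945236 (-0.54 ± 0.23). Under LmnC RNAi they had -1.64, -1.88 and -1.53, and under LmnB1 RNAi -1.18, -0.60 and -1.12. All 3 stood above their flanks in every map, by 1.09, 2.09 and 1.799 under LmnA RNAi, 1.19, 2.02 and 1.685 under LmnC RNAi, and 0.68, 2.25 and 1.23 under LmnB1 RNAi.

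The spacing of GATC sites, which the rule did not use, lay between that of other LADs and that of the inter-LAD stretches. Islands had a median of 2.44 fragments per kb, against 2.51 in the other autosomal LADs of the list (2.53 in those under 300 kb) and 2.38 in the stretches that hold the islands. The median fragment measured 270 bp in islands (193 to 325 bp), 258 bp in the other LADs and 281 bp in the stretches. An island was denser in fragments than its own stretch, which as defined above includes the island, in 151 of 216 cases. The same count over bins is not given here, so nothing is read from it. The ranges of islands (0.783 to 3.35 fragments per kb) and other LADs (0.413 to 3.36) overlap, and regions of 1 genome are not replicates, so no test was made. Fragments covered a median of 99.3% of an island, and 5 islands held gaps of 10 kb or more without a fragment, 255 kb in all.

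Whole LADs particular to 1 list were far fewer in the other maps. The LmnC RNAi list had 28 autosomal LADs that shared 0 bp with both other lists (1.65% of 1699, 5.15 Mb, median 156 kb), and the LmnB1 RNAi list had 22 (1.34% of 1644, 2.96 Mb, median 127 kb), against the 216 under LmnA RNAi. The LmnA RNAi map had the most such LADs and the highest median autosomal bin, while LmnC RNAi, with the lowest median bin, had more than LmnB1 RNAi. The part of the whole-map level in these counts was not tested. A further 78 autosomal LADs of the LmnA RNAi list shared 0 bp with LmnC RNAi LADs but some with LmnB1 RNAi LADs, and 87 the reverse.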

How the data were processed

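Reads were aligned with Bowtie to mm9, per the submitters' processing notes. How reads were filtered, ratios taken and LADs called is not given in the sources used here. A log2 ratio of fusion over Dam-only was deposited by the authors for 6581229 GATC fragments, 5972542 of them on chromosomes 1 to 19. In single-library fragments the values gave back whole read numbers (tolerance 0.02) for 100% of those with up to 100 reads. Depth per library is unknown. The deposited LAD lists hold starts and ends only.

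Signal of a region is the mean over fragments with their middle in it, weighted by length. SEs are over fragments of 1 library pair. Bins of 100 kb had at least 50% of their length covered. A difference over 0.5 was counted. Where no fragment lay for 10 kb or more, a gap was recorded. Named regions are the longest, the extremes of each signal and difference, the nearest and farthest, and those nearest to the rule's limit. The regions and lists were chosen with earlier results of these data known. Functions were tested on simulated data. Python 3.11.15, numpy 2.4.6, pandas 2.3.3 and scipy 1.17.1 were used.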

Additional observations from a re-analysis of the deposited data

How the results depend on the processing

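Each RNAi has 1 map, so no result has a replicate check. No paired analysis was possible because each RNAi has 1 map and no result comes from a test. Values run in the order LmnA, LmnC and LmnB1 RNAi, and the cause of each change was not tested beyond the construction of the setting. When single-library fragments were left out, the islands' median signals were -0.26 (sign turned), -0.81 and -0.50, the median LmnA RNAi differences to LmnC and LmnB1 RNAi 0.52 and 0.24, the steps over the flanks 0.89, 0.68 and 0.58, and 115 and 27 islands had a difference over 0.5. Leaving out fragments at the constant too gave -0.25 (sign turned), -0.94 and -0.55, differences of 0.65 and 0.30, steps of 1.00, 0.71 and 0.63, and 45 islands over 0.5 against LmnB1 RNAi. Centring gave -1.03 (sign turned), -1.58 and -1.27, differences of 0.53 and 0.36, and 115 and 76 islands over 0.5. Equal weight for each fragment gave 0.84, -1.60 and -0.93, differences of 2.48 and 1.92, and steps of 3.30, 2.55 and 2.13. Flanks of 50 kb gave steps of 2.30, 1.74 and 1.44, flanks of 200 kb 1.73, 1.27 and 1.03, and flanks without LADs of any map 2.24, 1.72 and 1.42. The median percentile under LmnA RNAi was 35.8 without single-library fragments, and that under LmnC RNAi was 32.7 with bins of 200 kb. From 200 kb upward there were 103 islands, with a median length of 325 kb, a median distance of 288 kb to another map's LAD and a median stretch of 2.04 Mb. Requiring 100 kb to the nearest LAD of another map left 165 islands, and removing gaps from all lists gave 226. Counts of islands above their flanks stayed between 194 and 216 under the other choices of fragments, weights, centring and flanks. Leaving out the 3 islands covered under 80% by fragments was chosen after seeing the data and moved neither median difference beyond its interval. The interval is the 95% order-statistic interval of a median over islands, such as 1.59 to 1.78 for the difference to LmnC RNAi. Islands of 1 map are not replicates, so it holds the spread among islands and no experimental error. Over all results and alternatives, 3 values turned their sign, 46 moved beyond the interval or 1.5 times the count, and 64 did neither.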

Other observations

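Chromosomes X and Y lie outside the rule used here. By the same criterion the LmnA RNAi list had 7 LADs on X that shared 0 bp with both other lists (8.14% of 86, 1.13 Mb) and 0 of 2 on Y. The 7 on X had median signals of 0.88 under LmnA RNAi, -1.21 under LmnC RNAi and -0.22 under LmnB1 RNAi. Of these, 3 lay close together, at chrX:130227962-130430079, chrX:130486694-130588299 and chrX:130872232-131118084. Their signals were 1.802 ± 0.33, 0.94 ± 0.54 and 0.88 ± 0.24 under LmnA RNAi, -0.98 ± 0.28, -0.99 ± 0.47 and -1.21 ± 0.25 under LmnC RNAi, and 0.16 ± 0.27, 1.36 ± 0.32 and -0.22 ± 0.25 under LmnB1 RNAi (SE over fragments). The middle one was thus higher under LmnB1 RNAi than under LmnA RNAi.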
